A study of Mus musculus with 16 samples.

Results

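The RNA of 8 chemokine ligands was followed through 4 dendritic cell subsets of the mouse spleen and 2 genotypes. They were chosen by gene symbol as 8 of the 24116 genes in the count table: Ccl3, Ccl4, Ccl5, Ccl17, Ccl22, Cxcl9, Cxcl10 and Cxcl16. The choice drew on these same data, because Ccl3 and Ccl4 were picked for being low in Esamhi CKO; for that reason the Esamhi contrast of the 8 genes is described with no test, and so are the WT levels of Ccl3 and Ccl4 against Esamhi. All 8 passed the filter on low counts, Ccl17 only through its counts in Esamlo WT.

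The study asked what loss of Etv6, a repressor of the ETS family of transcription factors, does to dendritic cells. The WT and CKO groups are named only by those genotype labels, CKO being the Etv6-deficient cells, and all cells were sorted from spleen without any stated treatment. Each of the 8 groups (Dec205, pDC, Esamlo and Esamhi, in WT and in CKO) held 2 libraries. The labels name no Cre driver and no ages, and do not say whether paired libraries are from different animals; a p-value here therefore reflects library-to-library spread, which may be technical. Dec205 is a surface receptor of classical type 1 dendritic cells (cDC1), pDC are plasmacytoid dendritic cells, and Esamlo and Esamhi are the ESAM-low and ESAM-high divisions of classical type 2 cells (cDC2).

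Chemokines are small secreted proteins that bind G protein-coupled receptors on leukocytes and guide their migration. Dendritic cells use them to draw in the cells they talk to: Ccl3, Ccl4 and Ccl5 attract T cells, NK cells and monocytes (Ccl3 and Ccl5 through Ccr1 among others), Ccl17 and Ccl22 act through Ccr4 on regulatory and helper T cells, Cxcl9 and Cxcl10 through Cxcr3 on activated T and NK cells, and Cxcl16 through Cxcr6. Cxcl16 differs from the rest in being made as a membrane-bound protein that proteases can shed, and Cxcl9 and Cxcl10 are classical targets of interferon gamma signalling, in which Irf1 takes part.

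The labels were checked first. Etv6 had 337 and 375 CPM (counts scaled to the library total) in the Dec205 WT libraries and 205 and 219 CPM in the CKO libraries (edgeR adjusted p = 0.000996), but its change did not pass the test in pDC (adjusted p = 1), Esamlo (0.255) or Esamhi (0.812), and a count over the whole gene checks a deletion of some exons only weakly. Mean levels of Xcr1, Siglech and Esam in WT went with the labels. Xcr1 (cDC1) was at 1252 CPM in Dec205 and at most 31.0 CPM elsewhere, and Siglech (pDC) at 5548 CPM in pDC and at most 6.33 CPM elsewhere. Esam was at 147 CPM in Esamhi, 12.6 CPM in Esamlo and 32.8 CPM in Dec205. The 8 cDC2 markers summed to 2639 to 2720 CPM in Esamlo WT and 2653 to 2921 CPM in Esamhi WT. They also reached 1841 to 1931 CPM in pDC WT, where Cd4 (529 CPM), Clec10a (244 CPM) and Mgl2 (41.4 CPM) were highest. Sex went with genotype in all 16 libraries: Xist was at most 1.44 CPM in WT and at least 114 CPM in CKO, and 4 Y-linked genes did the reverse. Sex and genotype therefore cannot be told apart in any comparison of CKO with WT.

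The 8 genes lie in 4 clusters or single sites of the genome (RefSeq, GRCm38.p6). Ccl3 (chr11:83647843-83649378, minus strand, 3 exons) and Ccl4 (chr11:83648624-83664683, plus strand, 3 exons) are divergent neighbours whose RefSeq models overlap; the GENCODE model of Ccl4 starts at 83662584 and does not reach Ccl3. Ccl5 (chr11:83525778-83530518, minus strand) is 117.3 kb from Ccl3. Cxcl16 (chr11:70454389-70459984, minus strand) is farther away on the same chromosome. Ccl22 (chr8:94745684-94751388) and Ccl17 (chr8:94809380-94812038) are both on the plus strand, 58.0 kb apart. Cxcl9 (chr5:92321331-92328079) and Cxcl10 (chr5:92346638-92348889) are both on the minus strand, 18.6 kb apart.

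Promoter sequence was available in the RefSeq table for 5 of the 8 genes. The 250 bases before the start site are shown for Ccl3, 1 of the 2 genes picked for their low level in Esamhi CKO, and for the neighbours Cxcl9 and Cxcl10, which sit close together but whose proportion differed between subsets. Capitals mark matches, on either strand, to GGGNNTTCC (a kB site, bound by NF-kB), GAAANNGAA (the core of an interferon response element, bound by interferon regulatory factors) and TGANTCA (an AP-1 site); no marked matches overlap. The intervals are chr11:83649379-83649628 for Ccl3, chr5:92328080-92328329 for Cxcl9 and chr5:92348890-92349139 for Cxcl10, all read 5′ to 3′ on the minus strand of GRCm38.p6.
Ccl3: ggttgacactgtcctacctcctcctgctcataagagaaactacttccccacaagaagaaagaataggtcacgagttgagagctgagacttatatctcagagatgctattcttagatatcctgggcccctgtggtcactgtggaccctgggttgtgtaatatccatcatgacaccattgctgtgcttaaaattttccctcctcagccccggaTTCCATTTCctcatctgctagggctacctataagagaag
Cxcl9: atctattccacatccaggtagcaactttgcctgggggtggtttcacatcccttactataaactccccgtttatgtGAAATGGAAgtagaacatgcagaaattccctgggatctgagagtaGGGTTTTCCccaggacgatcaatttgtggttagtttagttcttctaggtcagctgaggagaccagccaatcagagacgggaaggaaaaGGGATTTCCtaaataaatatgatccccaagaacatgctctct
Cxcl10: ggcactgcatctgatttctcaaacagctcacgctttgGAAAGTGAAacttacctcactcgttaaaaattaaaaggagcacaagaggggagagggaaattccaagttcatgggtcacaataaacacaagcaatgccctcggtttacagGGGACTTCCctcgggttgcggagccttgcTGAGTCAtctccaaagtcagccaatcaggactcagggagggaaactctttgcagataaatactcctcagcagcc

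Cxcl10 held 1 match to each of these motifs, the interferon response match starting at -213, the kB match at -103 and the AP-1 match at -74 from the start site. Cxcl9 held kB matches at -130 and -42 and an interferon response match at -175. Ccl3 held an interferon response match at -39, on the opposite strand, and no kB or AP-1 match. Searched in the same way in 32851 promoter windows of 250 bases, the kB letters were found in 4.98% of windows, the interferon response letters in 7.13% and the AP-1 letters in 6.75%. None of the 5 genes matched CCGGAAG, a core that ETS proteins bind (6.91% of windows). These letters were chosen with the sequences in view, and a match is a description of the sequence only.

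The subsets made very different sets of chemokine RNA. In WT the 8 genes summed to 2239 and 2688 CPM in Dec205, 2036 and 2084 CPM in pDC, 1430 and 1735 CPM in Esamhi, and 960 and 963 CPM in Esamlo. Per length of exon (RPKM, CPM per kilobase), which allows genes to be compared with each other, Ccl4 made up 95.6% and 96.0% of this sum in pDC WT. In Dec205 WT the largest share was that of Ccl5, with 46.4% and 47.4%, followed by Ccl4 with 28.0% and 29.4% and Cxcl16 with 10.5% and 12.0%. Esamhi WT had at least 49.5% Ccl4, with 23.8% and 24.0% Ccl3 and 22.0% Ccl5 in both libraries. Esamlo WT had less Ccl4, 41.3% and 44.2%, and more Cxcl16, 8.35% and 9.83% against 3.19% and 3.67% in Esamhi WT. The make-up also differed by genotype: Ccl5 was 31.4% and 39.2% in Dec205 CKO, where Ccl4 was 38.2% and 44.2%, and in Esamhi CKO Ccl5 was 32.7% and 33.9% beside 34.4% and 35.8% Ccl4.

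**Figure D1:**
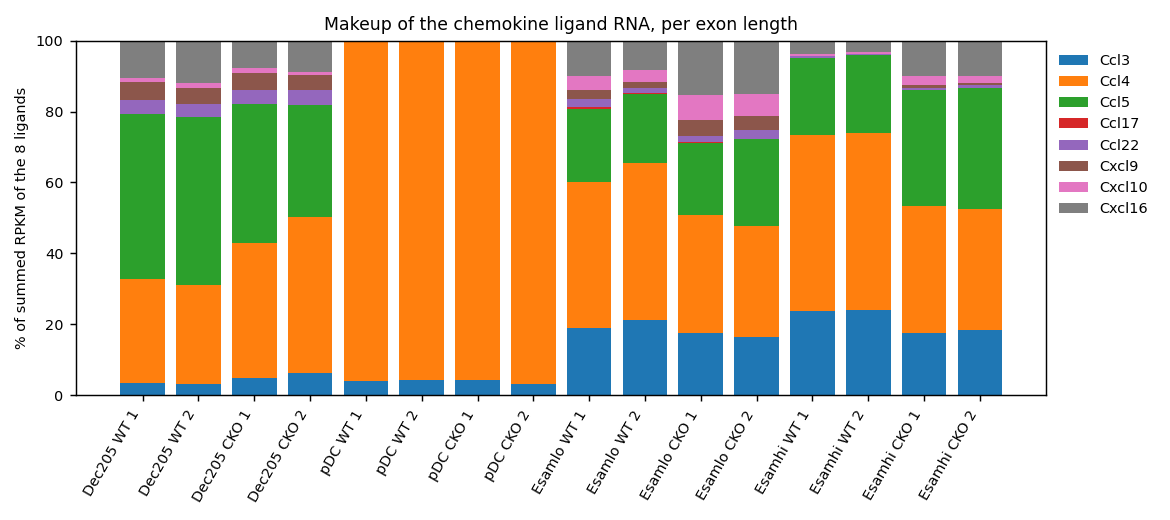
Share of each chemokine ligand in the summed RPKM of the 8 genes (vertical axis, percent) in each of the 16 libraries (horizontal axis). Ccl4 fills at least 95.4% of the pDC bars in both genotypes, and Ccl5 is the largest part of both Dec205 WT bars (46.4% and 47.4%).

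Levels of Ccl5, Ccl22, Cxcl9, Cxcl10 and Cxcl16 differed across the 4 WT subsets (edgeR quasi-likelihood joint test over all tested genes, adjusted p from 7.77e-10 for Cxcl16 to 5.25e-08 for Cxcl10). Ccl17 gets no test between WT subsets, since it passed the filter only through the group where it is high. Of all 13790 tested genes 61.7% passed the same test, so a difference between subsets was the common case. The pairs of subsets given next come from the same fit, share WT libraries with each other, and have their own background of called genes: 47.6% for Dec205 against pDC, 34.2% for Dec205 against Esamlo, 37.4% for Dec205 against Esamhi, 45.7% for pDC against Esamlo, 47.1% for pDC against Esamhi and 5.81% for Esamlo against Esamhi.

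**Figure D2:**
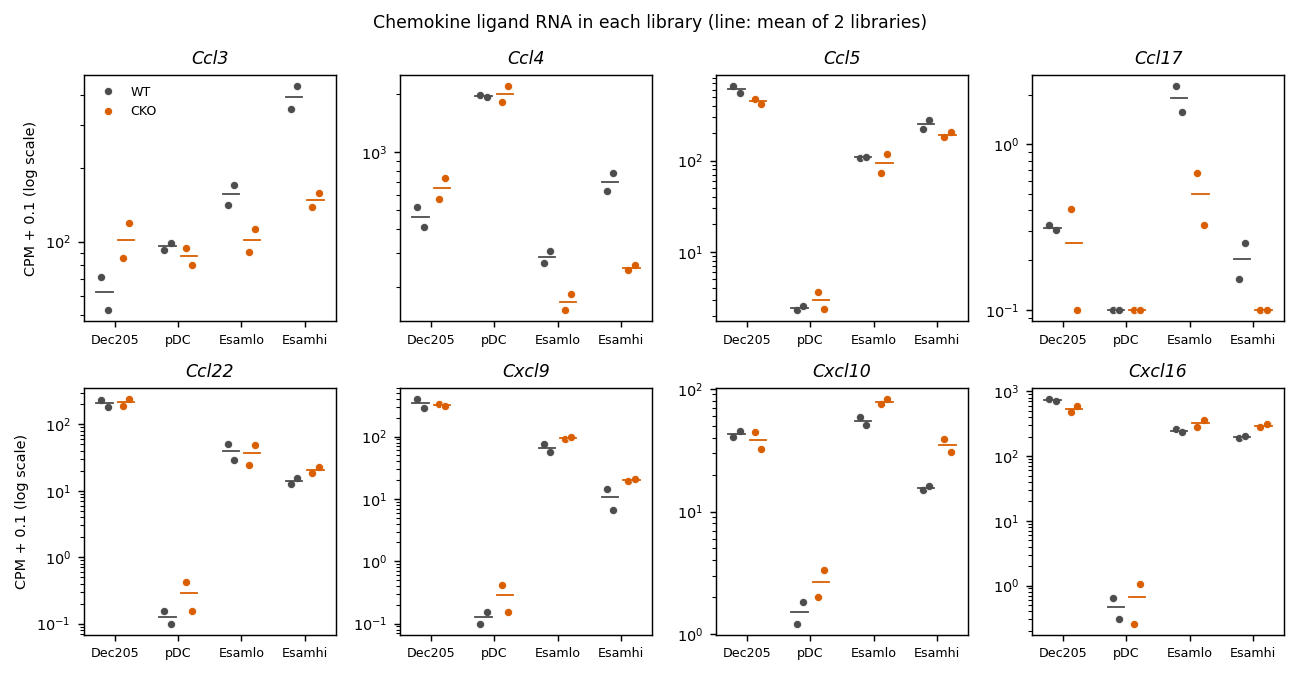
CPM plus 0.1 of each chemokine ligand on a log axis, 1 panel per gene, with a point per library (grey WT, orange CKO) and a line at the mean of the 2 libraries. The pDC points reach at least 79.9 CPM for Ccl3 and Ccl4 and at most 3.54 CPM for the other 6 genes.

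Ccl4, which attracts T cells and monocytes, was highest in pDC. Its WT libraries had 1987 and 1933 CPM in pDC, 625 and 781 CPM in Esamhi, 518 and 407 CPM in Dec205 and 266 and 307 CPM in Esamlo, and no groups overlapped. The level in pDC was 4.24-fold that in Dec205 (adjusted p = 4.25e-07) and 6.85-fold that in Esamlo (adjusted p = 4.59e-08). Dec205 was 1.62-fold above Esamlo (adjusted p = 0.00545, and 0.0600 without Dec205 WT replicate 1 or 0.0593 without Esamlo WT replicate 1).

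Ccl3, the neighbour of Ccl4 and a ligand of Ccr1, followed another order. Its WT libraries had 349 and 435 CPM in Esamhi, 142 and 171 CPM in Esamlo, 92.7 and 99.0 CPM in pDC and 71.3 and 52.2 CPM in Dec205. Esamlo was 2.53-fold above Dec205 (adjusted p = 0.000204) and 1.63-fold above pDC (adjusted p = 0.00981, and 0.0541 without pDC WT replicate 1 or 0.0854 without Esamlo WT replicate 2). The gap between pDC and Dec205 was 1.55-fold (adjusted p = 0.0180, and 0.160 without Dec205 WT replicate 2 or 0.0773 without pDC WT replicate 2).

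Both neighbours were thus present in every library, in proportions that differed by subset. Their RefSeq models overlap, the kit does not mark strand and the counting annotation is not given. Any reads in the overlap therefore cannot be told apart between the 2 genes. The ratio of Ccl4 to Ccl3 counts was 19.3 to 27.8 in the 4 pDC libraries, 6.21 to 7.79 in the 4 Dec205 libraries, 1.63 to 1.88 in Esamlo and 1.62 to 1.80 in Esamhi. The ranges of the pDC, Dec205 and cDC2 libraries did not overlap, while Esamlo and Esamhi did. Across the 16 libraries log2 CPM of Ccl3 and Ccl4 had a Pearson r of -0.11, a description over points that share subsets.

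Ccl5, which binds Ccr1 and is also abundant in T and NK cells, was highest in Dec205. The WT libraries had 660 and 555 CPM in Dec205, 224 and 276 CPM in Esamhi, 106 and 110 CPM in Esamlo and 2.19 and 2.44 CPM in pDC, with no overlap. All 6 pairs of subsets passed the test (adjusted p at most 0.00306), and Dec205 was 2.43-fold above Esamhi and 261-fold above pDC. The 8 NK cell markers summed to 81.9 to 99.2 CPM in Dec205 WT, mostly Klrk1 with a mean of 79.4 CPM, beside Nkg7 at 6.86 CPM and Ncr1 at 0, and the 8 T cell markers to 20.6 to 28.1 CPM there; their part in Ccl5 was not tested.

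The Ccr4 ligand Ccl22 was also a Dec205 product. Its WT libraries had 236 and 183 CPM in Dec205, 50.5 and 29.3 CPM in Esamlo, 12.7 and 15.3 CPM in Esamhi, and in pDC 1 count in all. Dec205 was 5.24-fold above Esamlo (adjusted p = 0.000169) and 14.9-fold above Esamhi (adjusted p = 4.07e-06). Esamlo exceeded Esamhi 2.85-fold (adjusted p = 0.0236, and 0.102 to 0.223 without Esamlo WT replicate 1 or either Esamhi WT library, and 0.0642 with no filter on low counts).

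Ccl17, the other Ccr4 ligand and a neighbour of Ccl22, was scarce and found mainly in Esamlo. Its counts were 38 and 22 in Esamlo WT, 3 and 3 in Dec205 WT, 1 and 3 in Esamhi WT and 0 in both pDC WT libraries. The Esamlo WT level was at least 23.5-fold higher than that of pDC WT when a floor of 3 counts stood in for the pDC group. The ratio of Esamlo WT to Dec205 WT was 8.56 (95% interval 3.71 to 24.2) and to Esamhi WT 17.5 (6.48 to 66.2), intervals that cover counting error only. These values are a description.

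The Cxcr3 ligands were lower in Esamhi than in Dec205 or Esamlo, and nearly absent from pDC. Cxcl9 had 401 and 284 CPM in the Dec205 WT libraries, 75.7 and 57.1 CPM in Esamlo, 14.3 and 6.64 CPM in Esamhi and 1 count over both pDC libraries. Every pair of subsets passed (adjusted p at most 0.000273), with Dec205 5.15-fold above Esamlo and Esamlo 6.36-fold above Esamhi. The ratio of Dec205 to pDC was 13021 for Cxcl9 (95% counting interval 2336 to 514349) and 7985 for Ccl22 (1433 to 315433), intervals that overlap.

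Cxcl10 did not share the Dec205 maximum of its neighbour. Its WT libraries had 59.0 and 50.7 CPM in Esamlo, 40.5 and 45.3 CPM in Dec205, 15.0 and 15.98 CPM in Esamhi and 1.12 and 1.73 CPM in pDC. Esamlo and Dec205 did not overlap, but their 1.28-fold difference did not pass the test (log2 difference of Dec205 from Esamlo -0.35, SE 0.23, adjusted p = 0.260). The other 5 pairs passed (adjusted p at most 0.000731). The ratio of Cxcl9 to Cxcl10 counts was 6.27 to 9.89 in Dec205, 1.13 to 1.28 in Esamlo and 0.416 to 0.950 in Esamhi over both genotypes.

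Cxcl16, the membrane-bound ligand of Cxcr6, was a general product of the 3 classical subsets and nearly absent from pDC. Its WT libraries had 761 and 713 CPM in Dec205, 259 and 237 CPM in Esamlo, 189 and 204 CPM in Esamhi and 0.534 and 0.203 CPM (10 and 4 counts) in pDC. Dec205 was 2.97-fold above Esamlo (adjusted p = 9.30e-05) and 3.74-fold above Esamhi (adjusted p = 1.65e-05). Esamlo and Esamhi did not overlap, and their 1.26-fold difference did not pass the test (adjusted p = 0.451). Zmynd15 overlaps Cxcl16 on the opposite strand and the kit does not mark strand, so their reads cannot be told apart where they overlap.

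In Esamhi, the contrast used to choose the genes, Ccl3 had 349 and 435 CPM in WT (392 ± 60.8, SD, n = 2) and 138 and 159 CPM in CKO (148 ± 14.4), 2.64-fold lower. Ccl4 had 625 and 781 CPM in WT (703 ± 110) and 243 and 258 CPM in CKO (250 ± 10.2), 2.81-fold lower. With each library left out in turn the log2 difference ran from -1.55 to -1.23 for Ccl3 and from -1.64 to -1.32 for Ccl4. The negative sign was fixed by the choice of these genes, so these ranges are a description only. The ratio of Ccl4 to Ccl3 counts was 1.79 and 1.80 in WT and 1.76 and 1.62 in CKO. The counts of both genes were thus lower by a near-equal factor, with the limit on reads in their overlap given above. Together these values put Esamhi CKO next to Esamlo WT for Ccl3, where the libraries overlapped, and below it for Ccl4.

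The other ligands in Esamhi CKO were described in the same way. Ccl5 had 224 and 276 CPM in WT and 179 and 205 CPM in CKO. Cxcl10 had 15.0 and 15.98 CPM in WT and 39.2 and 30.8 CPM in CKO, 2.25-fold higher, and Cxcl9 had 14.3 and 6.64 CPM in WT and 19.5 and 21.1 CPM in CKO. Cxcl16 had 189 and 204 CPM in WT and 280 and 308 CPM in CKO. Ccl22 had 12.7 and 15.3 CPM in WT and 18.3 and 23.1 CPM in CKO, and Ccl17 had 1 and 3 counts in WT and 0 in both CKO libraries, none above the floor of 3 counts. Ccl3, Ccl4, Ccl5 and Ccl17 were lower in CKO, and Ccl22 and the 3 CXC ligands higher. Libraries of the 2 genotypes did not overlap for any of the 8 genes, as for 44.2% of all tested genes.

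Markers of other subsets and cells also differed in Esamhi CKO. The summed level of 5 ESAM-low cDC2 markers was 568 to 592 CPM in WT and 1128 to 1232 CPM in CKO, that of 4 ESAM-high markers 1238 to 1258 CPM in WT and 888 to 929 CPM in CKO, and that of 7 monocyte markers 995 to 1055 CPM and 1805 to 1971 CPM. Among these markers Plac8 was called higher and Cd4 lower (adjusted p = 0.0314, and 0.125 to 0.331 with any of the 4 libraries left out). Sums of 8 neutrophil markers were 6.76 to 9.65 CPM in WT and 38.2 to 42.3 CPM in CKO, with mean Ngp at 1.44 and 15.8 CPM, S100a9 at 2.92 and 11.0 CPM and Ly6g at 0.104 and 0.198 CPM. Of these, edgeR called none, 4 had an unadjusted p under 0.05 and DESeq2 called 3 higher. The 11 macrophage markers had 467 to 748 CPM in WT and 530 to 603 CPM in CKO. The ESAM-low and monocyte lists share Ccr2, Csf1r and Lyz2, so their sums are not separate observations. Mean Lyz2 was 275 CPM in Esamhi WT and 735 CPM in CKO, and mean Ly6c2 of the monocyte list 3.23 and 2.52 CPM. In sorted bulk cells fewer cells of a type and less RNA per cell cannot be told apart, and the part of these markers in the chemokine levels was not tested.

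**Figure D3:**
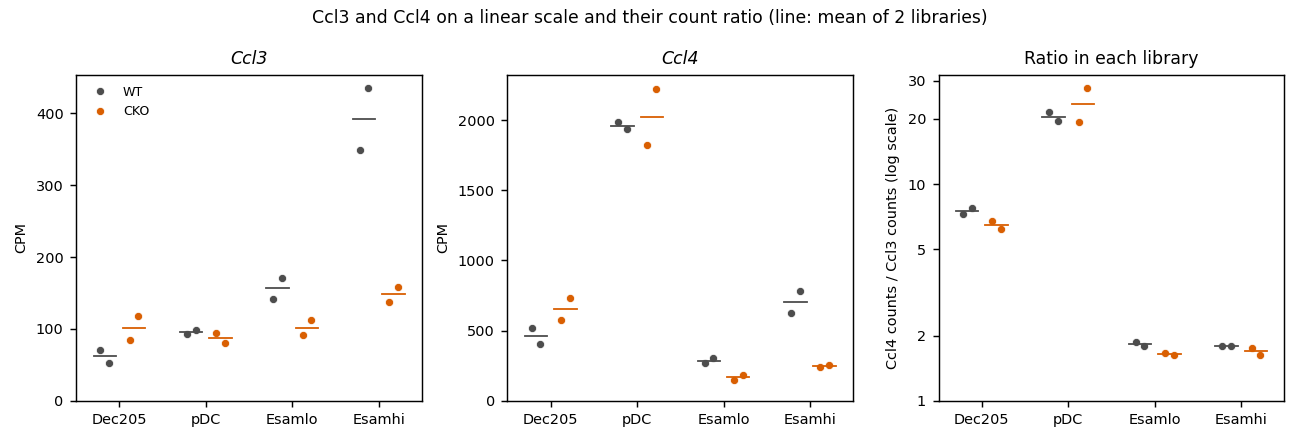
Ccl3 (left) and Ccl4 (middle) in CPM on linear axes from 0, and the ratio of their counts on a log axis (right), with a point per library and a line at the mean of 2. Esamhi CKO points lie below both WT points for each gene while the ratio stays between 1.62 and 1.80.

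In Esamlo, whose contrast the choice of genes did not use, Ccl3 and Ccl4 were also lower in CKO, and neither passed the edgeR test. Ccl4 had 266 and 307 CPM in WT and 150 and 183 CPM in CKO, a log2 fold change of -0.78 (SE 0.16, adjusted p = 0.0662). The libraries did not overlap, and 5 of 11 alternatives called it, DESeq2 among them (adjusted p = 0.000554), while leaving out a library gave 0.118 to 0.644. Ccl3 had 142 and 171 CPM in WT and 90.9 and 112 CPM in CKO, a log2 fold change of -0.62 (SE 0.19, adjusted p = 0.318), which no alternative called.

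For the rest of the ligands in Esamlo, no tested difference passed. Cxcl10 had 59.0 and 50.7 CPM in WT and 74.9 and 82.5 CPM in CKO (1.43-fold, adjusted p = 0.591), and Cxcl9 75.7 and 57.1 CPM in WT and 90.2 and 98.1 CPM in CKO (1.42-fold, adjusted p = 0.738). Cxcl16 had 259 and 237 CPM in WT and 279 and 364 CPM in CKO (adjusted p = 0.753). The 3 CXC ligands had both CKO libraries above both WT libraries, as in Esamhi. Ccl5 and Ccl22 overlapped between genotypes. Ccl17 had 38 and 22 counts in WT and 12 and 4 in CKO, a ratio of 4.43 (95% interval 2.52 to 8.25 from counting error only). It gets no test in Esamlo, since it passed the filter only through Esamlo WT, and these values are a description. In all, Ccl17 aside, edgeR called no ligand in Esamlo, Ccl3 and Ccl4 included, where 0.551% of all tested genes were called. An unadjusted edgeR p under 0.05 was found for 3 ligands, Ccl3, Ccl4 and Cxcl10, and DESeq2 called 1, Ccl4. Libraries did not overlap for 6 of all 8 ligands, Ccl17 among them, against 44.2% of all tested genes. The 8 B cell markers summed to 205 to 282 CPM in Esamlo WT and 308 to 751 CPM in CKO, with none called by edgeR, 4 at an unadjusted p under 0.05 and 1 called higher by DESeq2. The 7 monocyte markers summed to 4217 to 4873 CPM and 4353 to 4989 CPM, with Plac8 called higher; their part in the ligand levels was not tested.

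Dec205 cells showed Ccl3 and Ccl4 on the other side. Ccl3 had 71.3 and 52.2 CPM in WT and 85.2 and 119 CPM in CKO, and rose 1.65-fold (log2 0.72, SE 0.20, edgeR adjusted p = 0.0470). The call was lost without WT replicate 2 (adjusted p = 0.253), without CKO replicate 2 (0.217), with only the 4 Dec205 libraries (0.256) and with the replicate number as a block within genotype (0.0558). Ccl4 had 518 and 407 CPM in WT and 573 and 736 CPM in CKO (log2 0.50, SE 0.16, adjusted p = 0.0890), without overlap, and was called by DESeq2 (0.0256), with library size alone (0.0431) and without WT replicate 1 (0.0401).

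The ligands that are highest in Dec205 did not pass the test there. Ccl5 had 660 and 555 CPM in WT and 474 and 421 CPM in CKO (log2 -0.44, SE 0.19, adjusted p = 0.201). Cxcl16 had 761 and 713 CPM in WT and 472 and 594 CPM in CKO (log2 -0.47, SE 0.21, adjusted p = 0.200, called by DESeq2 with 0.0355). Neither gene's genotypes overlapped. Cxcl9 (adjusted p = 0.905), Cxcl10 (0.752), Ccl22 (0.995) and the few counts of Ccl17 (0.932) overlapped, and the log2 difference of Ccl22 was 0.03 with an SE of 0.32. In all, 1 of 8 ligands was called in Dec205, where 6.78% of all tested genes were called; 4 had an unadjusted p under 0.05, and DESeq2 called 2 higher and 1 lower. Libraries did not overlap for 4 of the 8, against 41.2% of all tested genes.

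Zmynd15, which overlaps Cxcl16, fell in Dec205 from 149 and 112 CPM to 57.5 and 73.3 CPM (adjusted p = 0.0487), a call that ended in all 4 fits with a library left out (0.0597 to 0.202). Of 32 tested genes within 100 kb of the ligands, edgeR called only Zmynd15 in Dec205 and none in the other subsets, with 6 in pDC, 3 in Esamlo and 2 in Esamhi at an unadjusted p under 0.05; DESeq2 called 4 (Dec205), 2 (pDC), 1 (Esamlo) and 1 (Esamhi). Other markers moved in Dec205 CKO as well: the summed level of 8 B cell markers was 134 to 157 CPM in WT and 359 to 636 CPM in CKO, with 3 called higher, that of 7 monocyte markers 1078 to 1183 CPM and 2727 to 3498 CPM, with 4 called higher, and that of 8 pDC markers 244 to 245 CPM and 451 to 523 CPM, with 5 called higher. The 11 macrophage markers went from 237 to 271 CPM in WT to 137 to 164 CPM in CKO, with none called by edgeR, 3 at an unadjusted p under 0.05 and 1 called lower by DESeq2. The 8 NK cell markers summed to 81.9 to 99.2 CPM in WT and 159 to 164 CPM in CKO, with Klrb1c called higher by edgeR and 1 higher and 2 lower by DESeq2; most of this sum was Klrk1, at a mean of 79.4 CPM in WT and 155 CPM in CKO, and Ncr1 was at 0 in both groups. The part of these markers, or of any cells that carry them, in the chemokine levels was not tested.

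In pDC the dominant ligand, Ccl4, did not pass the test. It had 1987 and 1933 CPM in WT and 1820 and 2221 CPM in CKO (log2 0.04, SE 0.16, adjusted p = 1), and Ccl3 had 92.7 and 99.0 CPM in WT and 94.4 and 79.9 CPM in CKO (log2 -0.14, SE 0.19, adjusted p = 0.941). Ccl5 had 2.19 and 2.44 CPM in WT and 3.54 and 2.25 CPM in CKO. Of the low CXC ligands, Cxcl10 had 1.12 and 1.73 CPM in WT and 1.90 and 3.27 CPM in CKO (adjusted p = 0.313). Ccl22 and Cxcl9 each had 1 count in WT and 7 in CKO, and Cxcl16 had 14 and 21. No ligand was called in pDC by edgeR or DESeq2, where edgeR called 1.85% of all tested genes, and 1 ligand, Cxcl10, had an unadjusted p under 0.05. Libraries did not overlap in CPM for 3 of the 8 (Ccl22, Cxcl9 and Cxcl10), against 37.3% of all tested genes. For Ccl22 and Cxcl9 this rests on the scaling of libraries alone. A WT and a CKO library each held 1 count of the gene, under the floor of 3 counts.

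**Figure D4:**
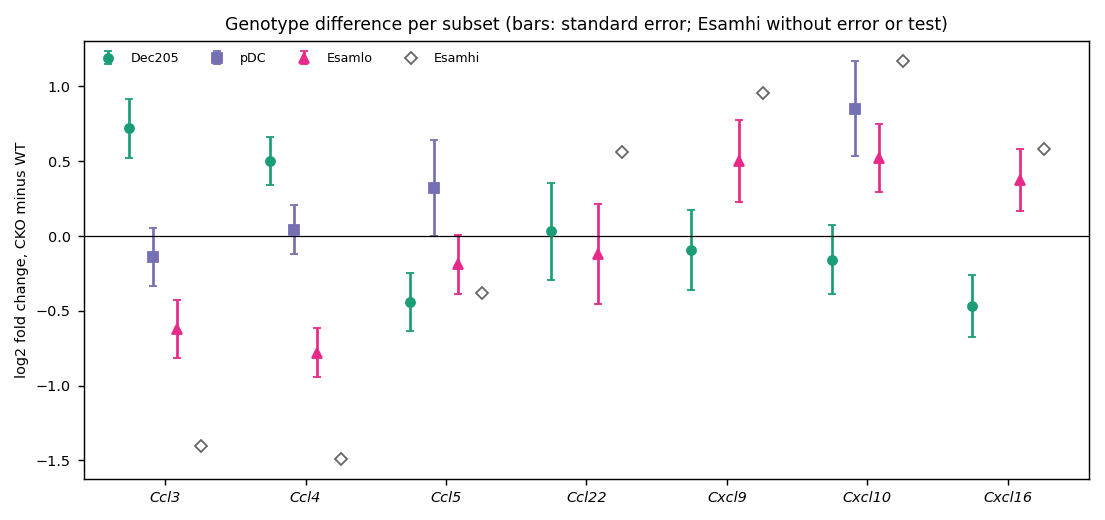
Log2 fold change of CKO against WT (vertical axis) for 7 ligands in each subset, with bars of 1 standard error; open diamonds are Esamhi values, given without error or test. For Ccl3 and Ccl4 the Dec205 values lie above 0 and the Esamlo and Esamhi values below it. Ccl17 and the pDC values of Ccl22, Cxcl9 and Cxcl16 are left out for their low counts.

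Whether the CKO effect differed between Dec205, pDC and Esamlo was tested directly, without the Esamhi libraries' contrast. It did for Ccl4 (joint edgeR adjusted p = 0.0238) and Ccl3 (adjusted p = 0.0490), while 2.57% of all tested genes passed. Ccl5, Ccl22, Cxcl9, Cxcl10 and Cxcl16 did not pass (adjusted p from 0.274 for Cxcl16 to 0.738 for Ccl22). Ccl17 gets no joint test, since that test uses the Esamlo WT libraries. The Ccl4 call was lost without Esamlo WT replicate 2 (0.0981), without Esamlo CKO replicate 1 (0.108) and with only the libraries compared (0.0599). The Ccl3 call was lost in 10 of 12 fits that left out a library, the 2 exceptions being Dec205 WT replicate 1 and Dec205 CKO replicate 1, and adjusted p ranged from 0.0220 to 0.144; with only the libraries compared it was 0.114. DESeq2 also called Cxcl16 (0.0111).

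Genes of interferon gamma signalling, the pathway that drives Cxcl9 and Cxcl10, were read beside the Cxcr3 ligands. Of 6 genes of the list, edgeR called 1, Irf1, higher in CKO in both Esamlo and Esamhi (where 0.877% of all tested genes were called) and none lower. Irf1, a transcription factor induced by interferon, had 257 and 239 CPM in Esamlo WT and 439 and 419 CPM in CKO (1.73-fold, adjusted p = 0.000600), and 188 and 202 CPM in Esamhi WT and 377 and 339 CPM in CKO (1.84-fold, adjusted p = 0.000171).

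Dec205 cells differed from this. Irf1 fell there from 502 and 548 CPM to 406 and 400 CPM (adjusted p = 0.0168, and 0.0502 to 0.224 in 5 of 11 alternatives, among them the fits without WT replicate 2 or either CKO library), and Ifngr2, a chain of the interferon gamma receptor, from 230 and 258 CPM to 184 and 196 CPM (adjusted p = 0.0205, and 0.109 to 0.312 without WT replicate 2, without CKO replicate 1 or with only these libraries). In pDC none of the 6 was called by edgeR or DESeq2, and 1 had an unadjusted p under 0.05. The CKO effect on Irf1 differed between Dec205, pDC and Esamlo (adjusted p = 0.000851). So the 2 cDC2 subsets had Irf1, Cxcl9 and Cxcl10 all above WT in both libraries. In each of these subsets 44.2% of all tested genes did not overlap, in either direction. Both pDC CKO libraries were also above WT for Irf1 (824 and 749 CPM in WT, 883 and 865 CPM in CKO). The same held for Cxcl10 in pDC (1.12 and 1.73 CPM in WT, 1.90 and 3.27 CPM in CKO), while Cxcl9 was nearly absent there. Whether the level of Irf1 bears on the ligands was not tested.

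**Figure D5:**
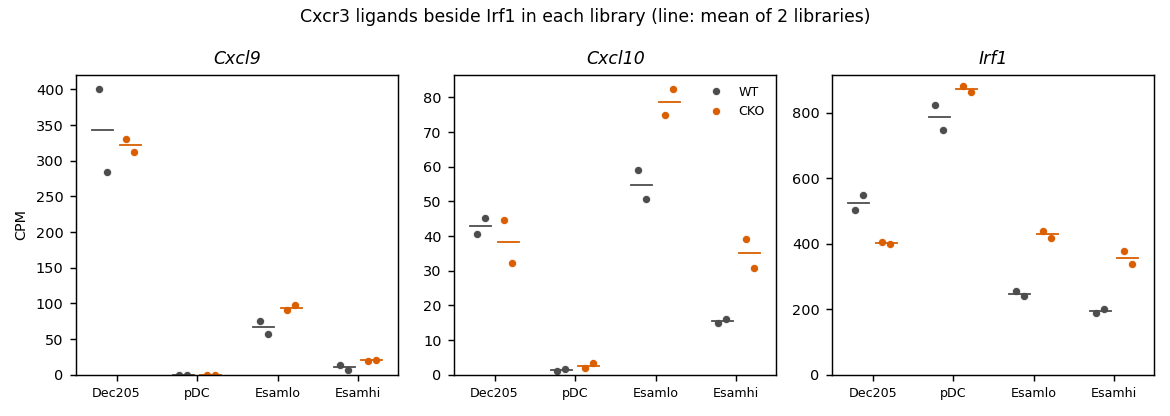
Cxcl9, Cxcl10 and Irf1 in CPM on linear axes from 0, with a point per library (grey WT, orange CKO) and a line at the mean of 2. All 3 genes have both CKO points above both WT points in Esamlo and in Esamhi, and Cxcl10 and Irf1 also in pDC.

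Genes of the factors that bind kB and AP-1 sites were read next. Of 14 NF-kB subunits and regulators edgeR called none in pDC, Esamlo or Esamhi, with 2, 3 and 3 at an unadjusted p under 0.05, and DESeq2 called 2 higher in Esamlo. In Dec205, where 6.78% of all tested genes were called, edgeR called 3 of the 14 lower, Relb, Nfkbib and Ikbkb, and DESeq2 called 5 lower. Relb, the subunit of the alternative NF-kB pathway, fell from 394 and 369 CPM to 205 and 220 CPM (adjusted p = 0.000383). Nfkbib and Ikbkb, an inhibitor and a kinase of the pathway, lost their calls without Dec205 CKO replicate 1 (adjusted p = 0.0703 and 0.1004), and Ikbkb also without WT replicate 2 (0.166) or CKO replicate 2 (0.0825).

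Of 15 immediate early genes, which include the AP-1 subunits, edgeR called 1 in Dec205, where DESeq2 called 3 higher and 1 lower. The edgeR call was Ier3, which fell from 194 and 141 CPM to 105 and 78.8 CPM (adjusted p = 0.0480, and 0.0554 to 0.188 without WT replicate 1 or either CKO library). None was called by edgeR in the other subsets, with 4 in pDC, 5 in Esamlo and 6 in Esamhi at an unadjusted p under 0.05; DESeq2 called 1 in pDC, 0 in Esamlo and 3 in Esamhi. Of 13 genes of dendritic cell maturation 5 fell in Dec205, among them the migration receptor Ccr7, with 3687 and 3731 CPM in WT and 1976 and 2026 CPM in CKO (adjusted p = 0.00997, and 0.0509 without CKO replicate 1). In pDC 2 rose and 2 fell, and edgeR called none in Esamlo or Esamhi, with 1 and 4 at an unadjusted p under 0.05; DESeq2 called 0 and 2.

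Some receptors for the ligands were themselves present in the dendritic cells. Cxcr3 had 156 and 136 CPM in pDC WT and 93.2 and 106 CPM in Dec205 WT, and at most 8.30 CPM in the WT libraries of Esamlo and Esamhi. Ccr4 and Cxcr6 were near the floor, with group means of at most 0.822 and 1.504 CPM. Of 6 receptors edgeR called 1, in Dec205, where DESeq2 called 1 higher and 1 lower. This was Ccr1, which had no count in Dec205 WT and 7.90 and 1.69 CPM in CKO, at least 48.0-fold higher when a floor of 3 counts stands in for the WT group (adjusted p = 0.00174, and 0.157 with only the 4 Dec205 libraries), with the 2 CKO libraries far apart. Mean Ccr1 was 4.79 CPM in Dec205 CKO, beside 24.9 CPM in pDC WT, 33.4 CPM in Esamlo WT and 6.78 CPM in Esamhi WT. In pDC 1 receptor and in Esamlo and Esamhi none had an unadjusted p under 0.05, and DESeq2 called none in these 3 subsets.

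Of 3 proteases that act on these ligands edgeR called 1, in pDC, and none in the other subsets, with 2 in Dec205, 0 in Esamlo and 1 in Esamhi at an unadjusted p under 0.05; DESeq2 called 1 in Dec205 and 0 in both others. Dpp4, which trims several chemokines at the amino terminus, rose in pDC from 126 and 139 CPM to 205 and 201 CPM (1.53-fold, adjusted p = 0.00475, and 0.0508 with only the 4 pDC libraries). Adam10 and Adam17, which can shed Cxcl16, were not called by edgeR in any subset; mean Adam10 was 53.1 CPM in Dec205 WT and 55.5 CPM in Dec205 CKO.

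Of 32 other chemokine ligands listed, 29 were in the table and 18 were tested, and edgeR called none in any of the 4 subsets. In Dec205 2 had an unadjusted p under 0.05, in pDC 1, in Esamlo 3 and in Esamhi 1, and DESeq2 called 1 higher and 1 lower in Dec205, 1 lower in Esamlo and none in pDC or Esamhi. Ccl9 and Ccl6, which lie between Ccl5 and Ccl3 on chromosome 11, were low in Esamlo CKO: Ccl9 had 143 and 132 CPM in WT and 33.9 and 51.5 CPM in CKO (adjusted p = 0.0745), and Ccl6 had 168 and 211 CPM in WT and 81.6 and 103 CPM in CKO (adjusted p = 0.438). They are named after their values were seen. Cxcl11, the third Cxcr3 ligand and a neighbour of Cxcl10, is a transcribed pseudogene in RefSeq for this build and averaged at most 1.81 CPM.

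Each ligand had genes whose log2 CPM (prior count 2) followed it closely over the 16 libraries, among 8866 genes with a mean of at least 3. Nearest were Gsn for Ccl3 (Pearson r 0.93), Fam122a for Ccl4 (0.96), Ckb for Ccl5 (0.99), Naa50 for Ccl17 (0.85), Tlr11 for both Ccl22 (0.995) and Cxcl9 (0.990), Lyz2 for Cxcl10 (0.97) and H2-Eb1 for Cxcl16 (0.99). The next in order were Mpzl3 and Exoc3 for Ccl3, Ankmy2 and Sh2b2 for Ccl4, Cd86 and Cd63 for Ccl5, Nop58 and Fh1 for Ccl17, Rab32 and Plbd1 for Ccl22, Rab32 and Gatm for Cxcl9, Lyz1 and Ocstamp for Cxcl10, and Ifngr1 and Batf3 for Cxcl16. Tlr11 is a receptor of cDC1 for a protozoan protein, Lyz2 the lysozyme of myeloid cells and H2-Eb1 an MHC class II chain. Among the ligands themselves Ccl22 and Cxcl9 were most alike (r 0.99) and Ccl4 and Cxcl10 most opposed (r -0.92). These r values mostly carry the 4 subsets that the libraries share, and with ranks in place of log2 CPM 1 of the 24 nearest genes stayed among the first 3.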

How the data were processed

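Dendritic cells of 4 subsets and 2 genotypes were profiled in 16 RNA libraries made with the SMART-seq v4 kit, per the labels' protocols; it amplifies full-length cDNA without molecular identifiers or strand marks. The deposited values are raw counts per gene, made by the authors; bcl2fastq, Trimmomatic 0.36, Bowtie2 2.2.9 and the build mm10 are named in the submitters' processing notes. The sources used here do not give the counting tool, its annotation or its strand setting. Libraries held 14434287 to 20709265 counts, so that a floor of 3 counts is 0.143 to 0.228 CPM; intervals and floors cover counting error only.

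Groups came from the labels. Genes were kept by filterByExpr (13790 of 24116), scaled by TMM and fitted together in 8 groups with edgeR 4.0.16 (R 4.3.3; robust quasi-likelihood F test, two-sided, on 8 residual degrees of freedom). P-values were adjusted by Benjamini-Hochberg across every tested gene, and a gene was called under 0.05. CPM used TMM-scaled library sizes. RPKM divided CPM by the merged exon length of GENCODE M21, on the same build. Every ligand was named; of the other lists only called genes, neighbours within 100 kb and, for each ligand, the 3 genes with the highest Pearson r were named, apart from those described by level. The ligands, lists and tests were chosen with earlier results of these data known. Some genes of the lists are not reported here and were left out of the lists' counts. The fit was tested on simulated data. Alternatives were DESeq2 1.42.0, RLE size factors, library size alone, no filter on low counts, only the libraries compared, 2 kinds of replicate block, and each library left out in turn.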

Additional observations from a re-analysis of the deposited data

Results flagged for a closer look

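In the main fit the CKO effect on 2 ligands differed between subsets by a test of the difference itself. For Ccl4 the joint edgeR test over Dec205, pDC and Esamlo gave an adjusted p of 0.0238, with log2 fold changes of 0.50, 0.04 and -0.78. For Ccl3 it gave an adjusted p of 0.0490, with log2 fold changes of 0.72, -0.14 and -0.62. Neither call held in the joint edgeR test on only the libraries compared (adjusted p = 0.0599 for Ccl4 and 0.114 for Ccl3). Both calls also depended on single libraries, that of Ccl3 more than that of Ccl4.

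Another 3 results set Dec205 against Esamhi, where every CKO library lay on one side of WT in Dec205 and on the other side in Esamhi. The log2 fold change in Dec205 minus that in Esamhi was 2.12 for Ccl3, 1.99 for Ccl4 and -1.05 for Cxcl16. These differences were not tested, because the Esamhi contrast entered the choice of genes, and Ccl3 and Ccl4 were picked for their low side there. Libraries of the genotypes did not overlap, in either direction, for 41.2% of all tested genes in Dec205 and 44.2% in Esamhi. The share of all genes with opposite sides in these subsets was not counted.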

How the results depend on the processing

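With 2 libraries per group and 8 residual degrees of freedom, single calls near the threshold moved with 1 library. DESeq2 called more genes than edgeR: 1698 against 935 (Dec205), 533 against 255 (pDC), 240 against 76 (Esamlo), 295 against 121 (Esamhi), and 1005 against 354 for the CKO effect differing between Dec205, pDC and Esamlo. With only the libraries compared the counts were 136, 91, 126, 578 and 171. Leaving out 1 library gave 585 (without WT replicate 2) to 1328 for Dec205, 176 to 281 for pDC, 28 to 38 for Esamlo, 44 to 48 for Esamhi and 206 to 621 for the joint test; the lone library of a group is then assumed to vary like the others. The 8506 genes called between WT subsets stayed within 1.5 times under every alternative run.

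The direction of 9 uncalled genotype differences of ligands turned when a library was left out. Over these fits the log2 fold change in Dec205 ran from -4.95 to 0.51 for Ccl17 (positive without CKO replicate 2), from -0.16 to 0.24 for Ccl22 (negative without CKO replicate 2, and -0.14 without WT replicate 2), from -0.32 to 0.19 for Cxcl9 (positive without WT replicate 1) and from -0.41 to 0.060 for Cxcl10 (positive without CKO replicate 2). In pDC it ran from -0.11 to 0.17 for Ccl4 and from -1.17 to 1.43 for Cxcl16 (both negative without CKO replicate 2), and from -0.049 to 0.61 for Ccl5 (negative without CKO replicate 1). In Esamlo it ran from -0.57 to 0.11 for Ccl5 (positive without CKO replicate 1) and from -0.75 to 0.33 for Ccl22 (positive without WT replicate 1, and 0.32 without CKO replicate 1). The cause was not tested. Of all values of ligands and named genes under alternatives, 1183 stayed the same, 78 lost a call, 11 gained one and 11 turned direction. Staying the same meant keeping direction and side of the threshold, or the side alone for joint tests. For untested values it meant keeping direction within the spread of the libraries.

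Whether replicate numbers pair the libraries is not in the labels. Same-numbered libraries of a subset had correlations of deviations from -0.0692 to 0.0169 between genotypes. Those of a genotype had correlations from 0.00719 to 0.116 between subsets, all above 0. Low values over all tested genes cannot exclude pairing, since each deviation also holds counting error. With the replicate block within genotype 945 genes were called for Dec205, 275 for pDC, 104 for Esamlo and 135 for Esamhi, and with the block across genotypes 971, 260, 86 and 136. Under the block within genotype Ccl3 lost its call in Dec205 (adjusted p = 0.0558) and in the joint test (0.0613), Zmynd15 lost its call in Dec205 under both blocks (0.0653 and 0.0578), and Ccl4 in Esamlo gained one (0.0245 and 0.0382).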
